A study of Mus musculus with 6 samples.

Results

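The genes described here encode matricellular, elastic and crosslinking proteins of the extracellular matrix, in dystrophic skeletal muscle after an antibody to CD25. The list had 10 entries, chosen by name: Fn1, Postn, Sparc, Tnc, Thbs2, Fbn1, Eln, Lox, Loxl1 and Loxl2. A gene was taken where a probe set of the array carried its symbol alone, which gave 8 of the 10 among 19752 measured genes. Fbn1 and Loxl2 are not analysed here: neither symbol stood alone on a probe set, and the one listed for Loxl2 is shared with the gene Gm21451. Each of the 8 measured members had 1 probe set.

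The study's title asks what loss of regulatory T cells does to dystrophic muscle. The 6 muscle samples from mdx mice were hybridised to 1 Affymetrix array each. Of these, 3 came from mice injected 2 times with anti-CD25, clone PC61, a monoclonal antibody whose target, CD25, is the interleukin-2 receptor chain found at high density on regulatory T cells, and 3 from mice injected with rat IgG on the same schedule. All 6 carry the mdx background, which lacks dystrophin, so neither group is healthy muscle, and the muscle taken is not named in the labels. Mice were injected at 17 and 20 days of age. By the design text the muscle was taken 7 days later, which does not match the 6 weeks of age in the sample labels. No label says whether the replicates of a group were separate animals, so p-values here reflect spread between samples that could in part be technical. Replicate 3 of each treatment differed from replicates 1 and 2 in Xist and Y-linked genes, as given below.

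Dystrophic muscle replaces damaged fibres within a matrix laid down largely by fibroblasts. Fibronectin forms the provisional network on which other matrix proteins assemble. Matricellular proteins such as periostin and tenascin-C change how cells attach and signal rather than bearing load. Elastic fibres are made of elastin on a scaffold of fibrillin microfibrils, and enzymes of the lysyl oxidase family oxidise lysines in elastin and collagen so that the chains crosslink.

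The labels call every animal male, but 4 arrays, replicates 1 and 2 of each treatment, had Xist values of 11.77 to 11.94 (log2), and Uty, Kdm5d and Eif2s3y, which are Y-linked, at 5.09 or below. Replicate 3 of each treatment had Xist at 5.49 with anti-CD25 and 5.48 with rat IgG, and the Y-linked genes at 7.80 or above. Differences are therefore also given for the 4 high-Xist arrays and for the low-Xist pair alone. Regulatory T cell transcripts were dim and did not pass the test: Foxp3 averaged 6.48 ± 0.11 with anti-CD25 and 6.57 ± 0.13 with rat IgG, and Il2ra averaged 5.66 ± 0.12 with anti-CD25 and 5.67 ± 0.090 with rat IgG (log2 units, SD, n = 3 each). The labelled tissue was checked on transcripts of skeletal fibres, which were bright on every array: the actin gene Acta1 averaged 13.79 ± 0.011 with anti-CD25 and 13.80 ± 0.040 with rat IgG (SD, n = 3 each).

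The measured members were bright, and none of their differences between the treatments passed the test. Their values ran from 8.96 to 13.23 log2 units, and all 8 lay above the upper quartile of every array, 8.67 to 8.77, so dim signal does not limit them. Against rat IgG, 6 of the 8 had a positive difference with anti-CD25 and 2 a negative one, from -0.085 for Loxl1 to 0.15 for Postn, with a median of 0.086 log2 units. Over all genes 41.1% had a positive and 58.9% a negative difference, and the median was -0.026; among the 4938 genes with a mean level above the upper quartile, 2806 had a positive difference and the median was 0.018. No member passed (limma, Benjamini-Hochberg over all genes, threshold 0.05), where 0% of all genes did; none had an unadjusted p under 0.05, where 6.28% of all genes did. The widest 95% interval of a member reached 0.28 log2 units to each side and the narrowest 0.17. Because whole muscle was profiled, fewer cells of a type and less RNA per cell cannot be told apart.

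**Figure D1:**
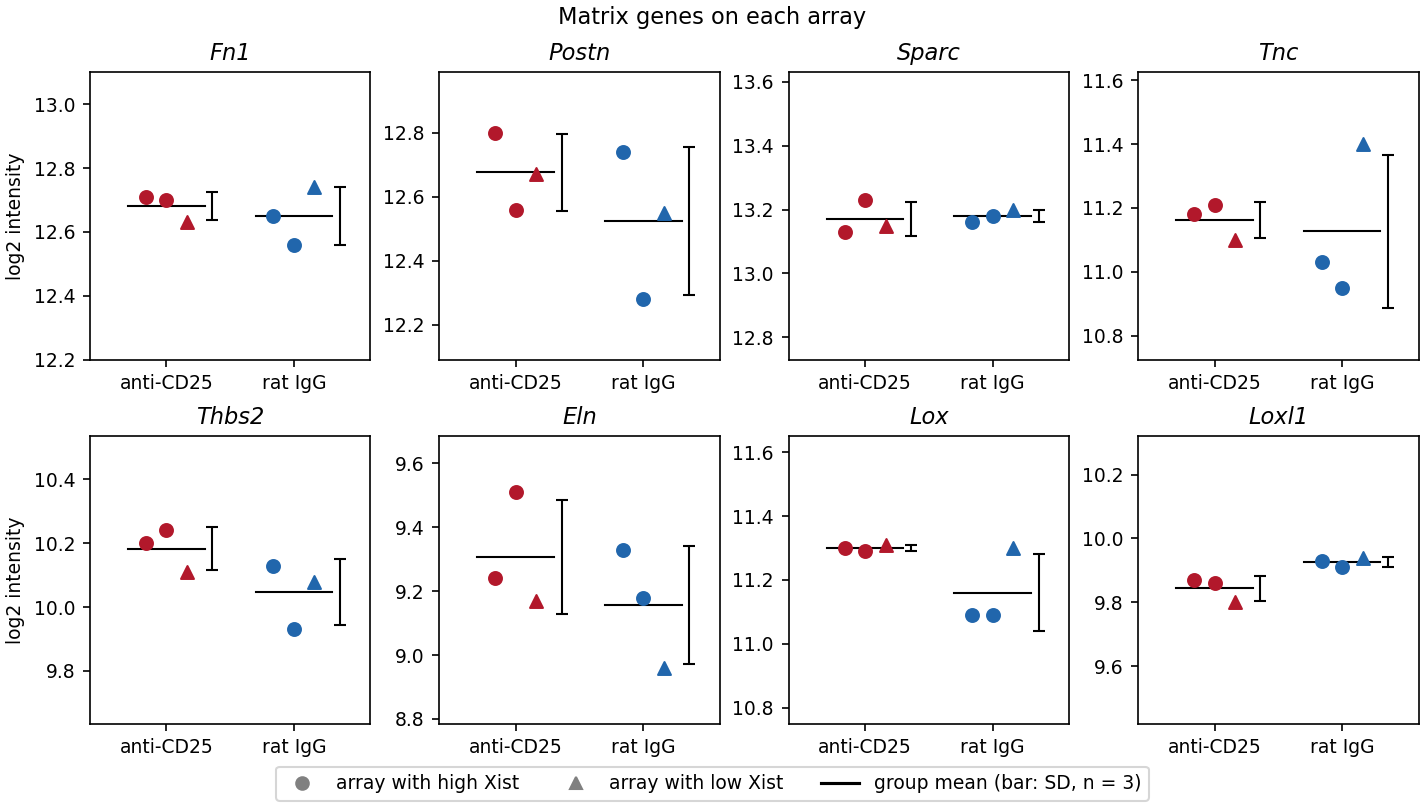
Log2 intensity (vertical axes, each of the same span) of the 8 matrix genes on the 3 anti-CD25 arrays and the 3 rat IgG arrays; circles are arrays with high Xist, triangles arrays with low Xist, lines are group means and bars SD (n = 3). Of the 8 genes, Loxl1 alone has no overlap between the groups, and within rat IgG the SD is largest for Tnc, at 0.242, and Postn, at 0.230.

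Fn1 encodes fibronectin, which cells bind through integrins. It measured 12.71, 12.70 and 12.63 log2 units on anti-CD25 arrays 1, 2 and 3, against 12.65, 12.56 and 12.74 on rat IgG arrays 1, 2 and 3. The anti-CD25 values lay inside the range of the rat IgG values. The difference was 0.028 (SE 0.083, 95% interval -0.16 to 0.22, limma adjusted p = 0.951), a ratio of 1.02, and it was 0.098 on the high-Xist arrays and -0.11 for the low-Xist pair.

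Among the matricellular members, Postn encodes periostin, a secreted protein of fibroblasts that binds collagen and integrins. Postn measured 12.80, 12.56 and 12.67 on anti-CD25 arrays 1, 2 and 3, against 12.74, 12.28 and 12.55 on rat IgG arrays 1, 2 and 3. The groups overlapped, with anti-CD25 1 highest and rat IgG 2 standing apart as the lowest. The difference was 0.15 (SE 0.12, 95% interval -0.13 to 0.43, limma adjusted p = 0.797), a ratio of 1.11. It was 0.093 without anti-CD25 1, while leaving out rat IgG 1 gave 0.261 and leaving out rat IgG 2 gave 0.032.

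Thbs2 encodes thrombospondin-2, a matricellular inhibitor of vessel growth. It measured 10.20, 10.24 and 10.11 with anti-CD25, against 10.13, 9.93 and 10.08 with rat IgG, in the order of the replicates. The groups overlapped only where anti-CD25 3 lay below rat IgG 1. The difference was 0.14 (SE 0.087, 95% interval -0.061 to 0.33, limma adjusted p = 0.760), a ratio of 1.10, and it was 0.078 without rat IgG 2. On the high-Xist arrays it was 0.19, and for the low-Xist pair 0.029.

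Tnc encodes tenascin-C, a large glycoprotein that appears in injured and regenerating tissue. Tnc measured 11.18, 11.21 and 11.10 with anti-CD25, against 11.03, 10.95 and 11.40 with rat IgG. The 3 anti-CD25 values lay between rat IgG 1 and 2 on the low side and rat IgG 3 on the high side. The mean difference was 0.035 (SE 0.12, 95% interval -0.24 to 0.31, limma adjusted p = 0.960). The high-Xist arrays alone gave 0.205 and the low-Xist pair -0.305. The interaction of treatment with Xist class was 0.51 log2 units. It rests on 1 array of each treatment with low Xist, so no p-value is given for it. Without rat IgG 3 the difference was 0.17, and without rat IgG 2 it was -0.056.

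Sparc encodes osteonectin, a collagen-binding chaperone of matrix assembly. It measured 13.13, 13.23 and 13.15 with anti-CD25, against 13.16, 13.18 and 13.20 with rat IgG. All 6 arrays lay within 0.092 log2 units, a range smaller than that of all but 1.09% of measured genes. The difference was -0.011 (SE 0.076, 95% interval -0.18 to 0.16, limma adjusted p = 0.980).

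Eln, the elastic fibre member, encodes tropoelastin, the soluble unit that lysyl oxidases join into elastin. It measured 9.24, 9.51 and 9.17 with anti-CD25, against 9.33, 9.18 and 8.96 with rat IgG. The highest value was anti-CD25 2 and the lowest rat IgG 3, with the other 4 arrays intermixed. The difference was 0.15 (SE 0.12, 95% interval -0.13 to 0.43, limma adjusted p = 0.801). Without anti-CD25 2 it was 0.046 and without rat IgG 3 it was 0.051, whereas it was 0.235 without rat IgG 1.

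The crosslinking enzymes Lox and Loxl1 had differences of opposite sign. Lox encodes lysyl oxidase, the founding member of its family. Lox measured 11.30, 11.29 and 11.31 with anti-CD25, against 11.09, 11.09 and 11.30 with rat IgG. The anti-CD25 arrays were nearly equal and matched rat IgG 3, whereas rat IgG 1 and 2 lay lower. The difference was 0.14 (SE 0.087, 95% interval -0.056 to 0.34, limma adjusted p = 0.754), a ratio of 1.10. It was 0.206 on the high-Xist arrays and 0.012 for the low-Xist pair; without rat IgG 3 it was 0.21 (limma unadjusted p = 0.0337, adjusted p = 0.294), the one member and array left out that gave an unadjusted p under 0.05.

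Loxl1 encodes a lysyl oxidase relative that in mice is needed to renew elastic fibres. Loxl1 measured 9.87, 9.86 and 9.80 with anti-CD25, against 9.93, 9.91 and 9.94 with rat IgG. Every anti-CD25 array lay below every rat IgG array, which made Loxl1 the 1 member of 8 without overlap; over all genes, 11.7% had no overlap and 7.46% had none with anti-CD25 lower. The difference was -0.085 (SE 0.075, 95% interval -0.25 to 0.085, limma adjusted p = 0.808), a ratio of 0.943. The sign was negative in both Xist classes, -0.054 within the high and -0.146 between the low.

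**Figure D2:**
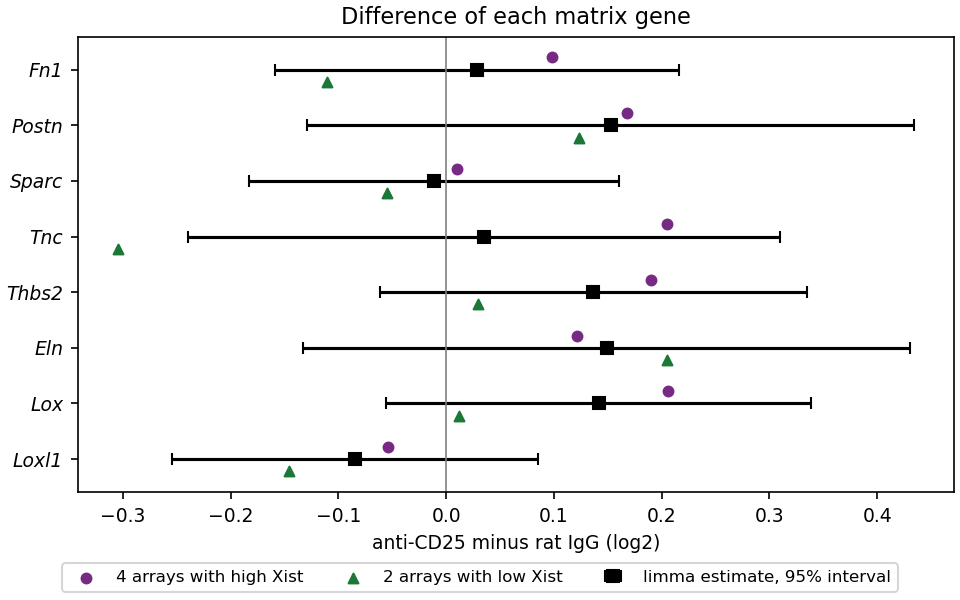
Difference of each matrix gene, anti-CD25 minus rat IgG, on the log2 scale (horizontal axis); squares and bars are limma's estimate and 95% interval over 6 arrays, circles the difference within the 4 arrays with high Xist and triangles that between the 2 arrays with low Xist. All 8 intervals include 0, and Fn1, Sparc and Tnc have opposite signs in the 2 Xist classes.

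The members did not vary as 1 block across the arrays. Eln had the widest range over the 6 arrays, 0.55 log2 units, followed by Postn with 0.514 and Tnc with 0.456, whereas Fn1 had 0.183, Loxl1 0.146 and Sparc 0.092. Fn1, Postn, Tnc, Thbs2 and Lox, 5 of the 8, had their lowest value on rat IgG 2, and Fn1, Tnc and Loxl1 had their highest on rat IgG 3. The mean of the 8 members, each relative to its own mean, was 0.047, 0.070 and -0.014 on anti-CD25 arrays 1, 2 and 3, against 0.003, -0.122 and 0.017 on rat IgG arrays 1, 2 and 3. Rat IgG 2 stood lowest, and the other 5 arrays lay between -0.014 and 0.070. Rat IgG 2 also had the lowest upper quartile over all probe sets, 8.67 log2 units, where anti-CD25 2 had the highest, 8.77. The share of all genes that were lowest on rat IgG 2 is not given here. The part of this array-wide offset in the members' values was not tested. Without rat IgG 2 the median difference of the members was 0.0098 in place of 0.086, with 4 of 8 positive, and without anti-CD25 2 it was 0.032.

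**Figure D3:**
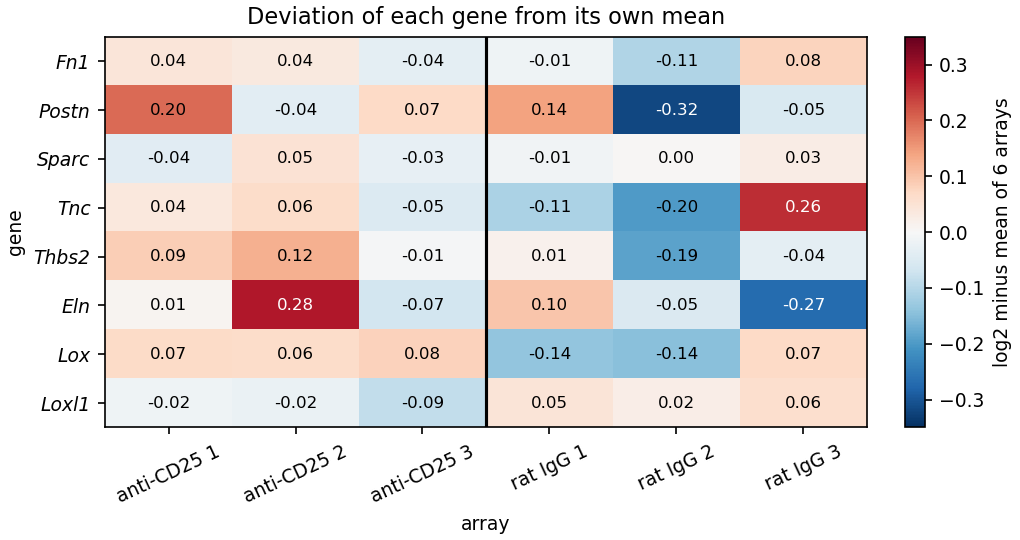
Deviation of each matrix gene (rows) on each array (columns) from its own mean over the 6 arrays, in log2 units; red is above and blue below the mean, and the vertical line divides anti-CD25 from rat IgG. Rat IgG 2 holds the lowest value of 5 genes, and Eln and Tnc move oppositely on rat IgG 3, at -0.27 and 0.26.

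Promoter sequences from RefSeq (build GRCm38.p6) were at hand for 4 of the 8 measured members, Postn, Tnc, Sparc and Thbs2. Of these, Postn, Tnc and Thbs2 had their lowest value on rat IgG 2. Postn and Thbs2 are printed beside Sparc, which had the narrowest range, and Tnc is not printed. Each run goes from 250 bases before to 50 after an annotated start; for Postn the downstream one of its 2 starts is shown. All lie on the strand given, 5′ to 3′, and capitals mark the letters of 5 motifs, searched on either strand. They were TATAAA of promoters that fix the start site, CCAAT of the factor NF-Y, TGACTCA of the AP-1 factors, GGGCGG of the SP1 family and CAGACA, which SMAD proteins bind.
Postn, chr3:54360857-54361156, plus strand: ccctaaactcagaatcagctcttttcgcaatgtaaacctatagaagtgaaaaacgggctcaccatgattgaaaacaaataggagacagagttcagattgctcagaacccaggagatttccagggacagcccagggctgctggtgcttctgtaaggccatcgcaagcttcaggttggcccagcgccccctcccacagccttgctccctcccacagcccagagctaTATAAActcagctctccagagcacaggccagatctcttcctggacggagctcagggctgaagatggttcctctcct
Thbs2, chr17:14694213-14694512, minus strand: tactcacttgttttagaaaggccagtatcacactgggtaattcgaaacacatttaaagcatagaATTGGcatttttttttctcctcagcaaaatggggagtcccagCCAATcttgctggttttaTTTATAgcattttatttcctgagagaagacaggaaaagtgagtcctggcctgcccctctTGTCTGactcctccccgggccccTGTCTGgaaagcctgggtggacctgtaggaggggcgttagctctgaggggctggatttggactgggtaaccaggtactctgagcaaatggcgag
Sparc, chr11:55420031-55420330, minus strand: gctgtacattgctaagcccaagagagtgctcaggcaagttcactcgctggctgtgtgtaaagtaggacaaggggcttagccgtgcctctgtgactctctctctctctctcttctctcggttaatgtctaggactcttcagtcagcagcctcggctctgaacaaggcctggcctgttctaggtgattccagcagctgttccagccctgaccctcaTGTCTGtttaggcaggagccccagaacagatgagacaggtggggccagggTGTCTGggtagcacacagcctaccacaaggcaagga
Postn carried TATAAA at positions -26 to -21, counted from the base before the start as -1. Thbs2 carried TTTATA, its reverse complement, at -126 to -121, CCAAT or its reverse complement at -144 and -186, and the reverse complement of CAGACA at -67 and -44. Sparc carried the reverse complement of CAGACA at -36 and 15. Of 32851 promoters of the same length, 13.6% held TATAAA, 37.4% CCAAT, 5.20% TGACTCA, 35.7% GGGCGG and 21.0% CAGACA, on either strand. None of the matches overlapped another, and they describe letters, not bound factors.

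Other genes of the same systems were taken from lists, and none of them passed the test adjusted over all genes. The 3 genes named from each list had its smallest unadjusted p, a choice that favours groups without overlap. Over all genes, 11.7% had no overlap. Of 22 measured adhesive and matricellular partners, 9 had a positive and 13 a negative difference, with a median of -0.038. Ccn2, which encodes connective tissue growth factor, measured 11.33, 11.76 and 11.65 with anti-CD25, against 9.89, 10.55 and 11.66 with rat IgG. Rat IgG 3 lay level with the anti-CD25 arrays, and rat IgG 1 and 2 lay lower. The difference was 0.88 (SE 0.36, limma adjusted p = 0.750), a ratio of 1.84; it was 1.32 on the high-Xist arrays, -0.010 for the low-Xist pair, 0.475 without rat IgG 1 and 1.36 without rat IgG 3. Thbs1, which encodes thrombospondin-1, an activator of latent TGF-beta, had the same arrangement, with 11.54, 11.72 and 11.86 with anti-CD25, against 10.87, 10.96 and 11.91 with rat IgG, and a difference of 0.455 (SE 0.24). It was 0.712 on the high-Xist arrays, -0.058 for the low-Xist pair, 0.266 without rat IgG 1 and 0.788 without rat IgG 3. Vtn, the gene of vitronectin, stood at -0.183 (SE 0.095). Immediate early genes, which respond to handling, varied over the same rat IgG arrays: their list mean was -0.001, -0.047 and -0.166 on anti-CD25 arrays 1, 2 and 3, against -0.345, -0.020 and 0.579 on rat IgG arrays 1, 2 and 3, and their part in the values of Ccn2, Thbs1 and Tnc was not tested.

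Elastic fibre and microfibril partners divided evenly, with 9 positive and 9 negative differences among 18 and a median of 0.0027. Mmrn2, an endothelial relative of the emilins, averaged 8.36 ± 0.061 with anti-CD25 and 8.63 ± 0.075 with rat IgG (SD, n = 3 each), a difference of -0.263 with no overlap (limma unadjusted p = 0.011, adjusted p = 0.750). The latent TGF-beta binding proteins stood on opposite sides, Ltbp2 at 0.194 with no overlap and Ltbp4 at -0.246 with overlap. Crosslinking and collagen modifying enzymes had 13 of 20 positive differences and a median of 0.035. Atp7a, the copper pump that supplies lysyl oxidases with their metal, measured 9.25, 9.30 and 9.27 with anti-CD25, against 9.08, 8.94 and 9.10 with rat IgG. The groups did not overlap, and the difference was 0.234 (SE 0.081, limma unadjusted p = 0.0179, adjusted p = 0.750). Plod2, which hydroxylates collagen telopeptide lysines, stood at 0.222 and P4ha1, a prolyl hydroxylase, at 0.121. Plod2 was 0.353 on the high-Xist arrays, -0.039 for the low-Xist pair and 0.092 without rat IgG 2. P4ha1 had no overlap and was 0.050 without anti-CD25 2.

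Receptors for these proteins had 13 of 18 positive differences and a median of 0.089. Stab1, a scavenger receptor of macrophages that takes up SPARC, stood at 0.328 (SE 0.12), Cd36, a thrombospondin receptor, at 0.177 with no overlap, and Itgb6, a chain of a fibronectin receptor that activates TGF-beta, at -0.229 with no overlap and at -0.144 without anti-CD25 1. Proteases had 10 of 20 positive differences and a median of -0.0045. The elastin-cutting cathepsin gene Ctss stood at 0.594 (SE 0.23), the collagenase gene Mmp8 at 0.421 (SE 0.14) and the gelatinase gene Mmp9 at -0.300 (SE 0.12). Mmp8 was dim, with values of 5.65 to 6.51 log2 units that lay below the array medians of 7.23 to 7.24. Ctss was 0.394 without rat IgG 2. Mmp9 had no overlap, and its difference was -0.183 without rat IgG 3, -0.154 on the high-Xist arrays and -0.592 for the low-Xist pair. Genes of TGF-beta signalling and matrix regulation had 10 of 17 positive differences and a median of 0.021. Tgfbr1, a receptor chain, stood at 0.193 and Skil, a feedback inhibitor, at 0.237. Tgfbr1 had no overlap and was 0.107 without rat IgG 2, and Skil was 0.373 on the high-Xist arrays and -0.035 for the low-Xist pair. Pdgfrb, the receptor of pericytes and fibroblasts for platelet-derived growth factor B, averaged 10.20 ± 0.028 with anti-CD25 and 10.38 ± 0.054 with rat IgG (SD, n = 3 each), a difference of -0.184 with no overlap. Fibrillar collagens had 3 of 11 positive differences and a median of -0.020, with Col24a1 at -0.121, Col5a2 at 0.117 and Col2a1 at 0.110. Col5a2 was 0.026 without rat IgG 2 and Col2a1 was 0.0085 without rat IgG 3. On the high-Xist arrays Col24a1 was -0.212 and Col2a1 -0.031, while for the low-Xist pair Col24a1 was 0.061 and Col2a1 0.391. Like Mmp8, Col24a1 was dim, with values of 6.96 to 7.21 log2 units that lay below the array medians. The lowest limma adjusted p among the collagens was 0.777.

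Markers of the cells that make or border the matrix were set beside the members. Fibroblast markers had 7 of 14 positive differences and a median of -0.014, and their summed level ran from 14.59 to 14.67 log2 units with anti-CD25 and from 14.60 to 14.67 with rat IgG. The fibroblast marker Dcn averaged 13.00 ± 0.024 with anti-CD25 and 13.00 ± 0.047 with rat IgG (SD, n = 3 each), and Cd34 differed by 0.052. Macrophage markers had 15 of 16 positive differences, with a median of 0.298, and 5 had an unadjusted p under 0.05 with a positive difference, where 2.30% of all genes did. Their summed level ran from 14.28 to 14.71 with anti-CD25 and from 14.03 to 14.33 with rat IgG, so the groups overlapped. Lyz2 differed by 0.306 and C1qb by 0.200, which was 0.119 without anti-CD25 1 and 0.325 without anti-CD25 2. The macrophage list, like the members, had its lowest mean on rat IgG 2, at -0.367. So did the receptors, at -0.102, the proteases, at -0.140, and the crosslinking and collagen modifying enzymes, at -0.067. On anti-CD25 2 and 3 the macrophage list stood at -0.060 and 0.206, where the members stood at 0.070 and -0.014. The part of macrophages in the members' values was not tested.

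Muscle, vessel and tendon markers gave further context. Regenerating fibre and myoblast markers had 10 of 14 negative differences, with a median of -0.148, and their summed level ran from 14.85 to 14.90 with anti-CD25 and from 14.86 to 15.11 with rat IgG. Myl4, an embryonic light chain, differed by -0.316 with no overlap (limma adjusted p = 0.750) and by -0.209 without rat IgG 1, and Actc1, cardiac actin, differed by 0.014. Smooth muscle and pericyte markers had 8 of 12 negative differences, 2 of them with an unadjusted p under 0.05, where 3.98% of all genes had one with a negative difference, and a median of -0.058, with Acta2 at -0.057 and Mustn1 at -0.028. Differences in this list ran from -0.357 to 0.198. The groups did not overlap for 1 marker with anti-CD25 higher and 2 with anti-CD25 lower, where 11.7% of all genes had no overlap. Endothelial markers had 9 of 12 negative differences, a lowest difference of -0.266 and a median of -0.037. For 2 of the 12 the groups did not overlap, with anti-CD25 lower, where 7.46% of all genes had such a gap. The brightest endothelial markers, Cdh5 and Emcn, stood at 0.00047 and -0.0018. Tendon cell markers had 6 of 9 negative differences and a median of -0.056, with Thbs4 at 0.057 and Fmod at -0.103, and their mean ran from -0.304 to 0.248 over the anti-CD25 arrays and from -0.184 to 0.141 over the rat IgG arrays. Skeletal fibre markers had 12 of 15 negative differences and a median of -0.018, with Atp2a1 at -0.018. Immediate early genes had 9 of 14 negative differences and a median of -0.147, with Dusp1 at -0.276 and Nr4a1 at 0.145. Of these 14, 2 had a negative difference with an unadjusted p under 0.05, where 3.98% of all genes did. The mean difference of this list was 0.158 on the high-Xist arrays and -0.745 for the low-Xist pair. The differences of Acta2, Cdh5, Emcn, Thbs4, Fmod, Actc1 and Nr4a1 turned sign with 1 array left out.

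**Figure D4:**
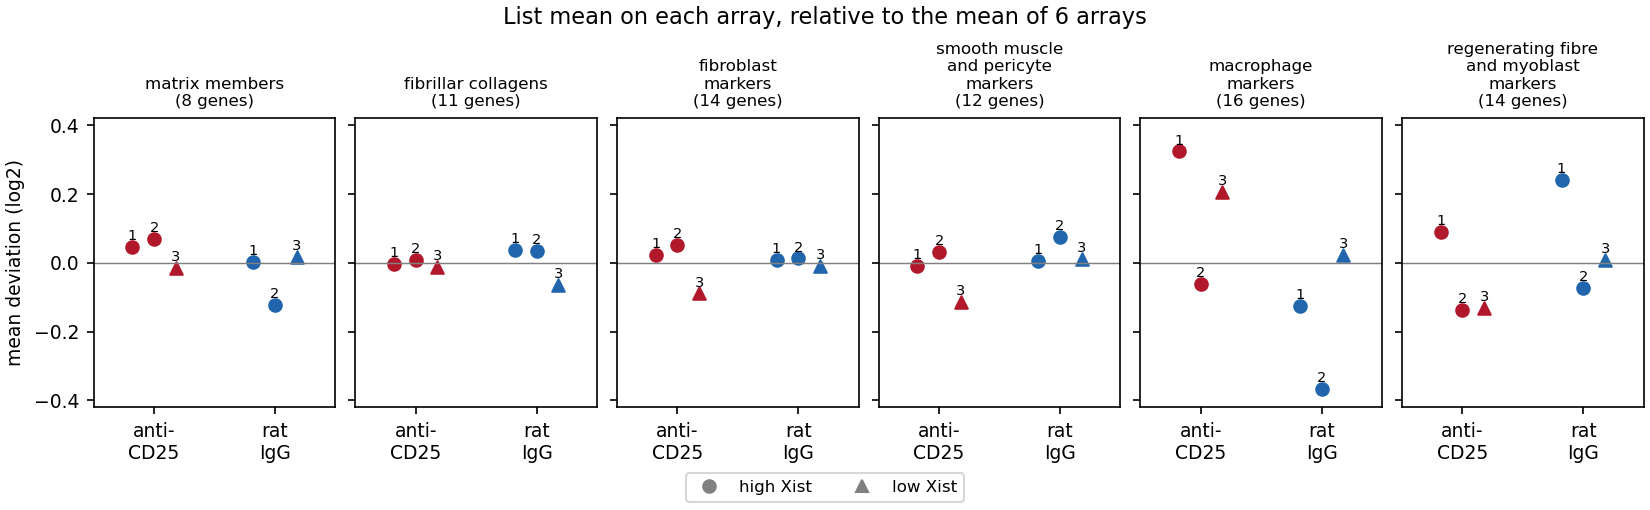
Mean log2 deviation of each gene list from its mean over the 6 arrays (vertical axis), for the matrix members and 5 other lists; each point is 1 array, labelled with its replicate number, with anti-CD25 left of rat IgG, circles for high and triangles for low Xist. The matrix members, the collagens and the fibroblast markers lie between -0.122 and 0.070 on every array, while the macrophage markers run from -0.367 on rat IgG 2 to 0.324 on anti-CD25 1.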

How the data were processed

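Total RNA of 6 muscle samples was measured on Affymetrix arrays after biotin labelling, per the labels' protocols. The authors deposited 1 intensity per probe set and array, made with RMA in Affymetrix Power Tools per the submitters' processing notes; the versions used and later steps are unstated. The deposited intensity values lie on a linear scale, with array medians of 149.8 to 151.5, so log2 was taken with no pseudocount. RMA equalises overall brightness and draws dim values together, but the deposited arrays were less alike in their quartiles than in their medians. Lower quartiles ran from 51.2 to 57.7 and upper quartiles from 407.2 to 437.3. With a second quantile normalization the members' median difference was 0.067 in place of 0.086. Sparc then stood at -0.058 in place of -0.011. Of 24922 rows, 21425 had 1 gene symbol, 1399 several and 2098 were not listed in the probe table; the brightest probe set was kept per gene. Each of 19752 genes was fitted by treatment with limma 3.58.1 in R 4.3.3 (lmFit, eBayes, two-sided), with Benjamini-Hochberg adjustment over all genes and 95% intervals. The number of arrays limits the precision. Lists are described by counts and medians, with no test.

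The members, lists and alternatives were chosen with earlier results of these data known. The members are all named; from each related list the 3 genes with the smallest unadjusted p, and from each marker list the 2 brightest, with Il2ra, Foxp3, Xist and the Y-linked genes. The fit was tested on simulated data. Alternatives covered normalization, variance model, array weights, a filter on dim genes, probe set averaging, replicate number, Xist class and each array left out; the low Xist pair, the interaction and a ratio of linear means were added after seeing the data.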

Additional observations from a re-analysis of the deposited data

How the results depend on the processing

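None of the 8 members passed under the 15 alternatives computed for each (limma adjusted p 0.257 to 1). Postn, Thbs2, Eln, Lox and Loxl1 kept their sign in all 15. Sparc turned to 0.010 in the arrays with high Xist only. With 1 array left out, the difference ran from -0.018 to 0.074 for Fn1, from -0.040 to 0.0059 for Sparc and from -0.056 to 0.17 for Tnc; Fn1 turned negative without rat IgG 2, Sparc positive without anti-CD25 1, and Tnc negative without rat IgG 1 (-0.012) and without rat IgG 2. The cause of these turns was not tested. The median difference of the members ran from 0.0098 to 0.114 with 1 array left out. Within the 4 high-Xist arrays this median was larger, 0.144, with 7 of the 8 members positive. For the low-Xist pair it was -0.022. Over all genes, 0 to 7 passed with 1 array left out, the 7 without rat IgG 3 and no member among them. The 1240 genes with an unadjusted p under 0.05 became 663 to 3030 with 1 array left out, 2254 with array weights and 4081 in the 4 arrays with high Xist. The labels do not say that the replicate numbers pair the arrays, although replicate 3 is the low-Xist array in both treatments; same-numbered arrays correlated at 0.030, -0.007 and -0.166 in their deviations, and with the number as a replicate block 0 genes passed, 1105 had an unadjusted p under 0.05 and the members' median was 0.086. The limits are 3 arrays per treatment and Xist classes that the labels do not record.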
